A study of Mus musculus with 6 samples.

Results

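The genes described here keep the photoreceptor outer segment and its cilium in working order, and most are known as genes of inherited retinal disease. They were taken from a list of 44 names, of which Pcdh21 and Cdhr1 are an older and a newer symbol of 1 gene. Rp2h was found under its newer symbol Rp2, and no probe set with a single gene symbol was found for Gucy2f, Impg2 and Eys. The other 40 genes were measured by 65 probe sets, out of 18193 genes measured on the array, and the probe set with the highest mean of the 6 arrays stood for its gene. Of these 40 genes, 36 passed the expression filter, a mean log2 intensity above 7 in either genotype, as did 11065 genes in all.

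Retinas came from adult OC2-KO mice, which lack the transcription factor Onecut2 in every tissue, and from adult wildtype littermates (OC2-WT), with 3 arrays per genotype and no further treatment. The labels give no exact age. The study's text speaks of littermates, but neither it nor the labels say whether every array had its own animal. P-values therefore reflect array-to-array spread that may in part be technical. Precision is limited by the number of arrays. The comparison asks which transcripts of the mature retina differ when Onecut2, a factor that horizontal cells need, is lost.

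The outer segment is a modified cilium filled with stacked membrane discs, and it is renewed throughout life. Everything it holds is made in the inner segment and passes a narrow connecting cilium, carried by motors or by lipid-binding chaperones. In the outer segment, calcium-binding proteins set the activity of guanylate cyclase and of rhodopsin kinase. Loss of many of the proteins named here leads to photoreceptor death.

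The 3 Onecut2 probe sets lay between 8.52 and 9.23 in OC2-KO and between 5.28 and 7.01 in OC2-WT on the log2 scale. Per the study's text these probes match the 3' end of the gene, and it proposes that the leftover sequence is transcribed more in the knockout. They therefore cannot show loss of Onecut2. The 2 labelled genotypes did not overlap on them, but the study read the higher level from these same arrays. The 2 arrays that share a replicate number varied together and are called a pair. The arrays numbered 3 stood apart in both genotypes. Their 3' probe set of Actb exceeded the 5' one by 3.39 in OC2-KO and 2.95 in OC2-WT, while this log2 difference ran from 0.74 to 1.41 in the other OC2-KO arrays and from 0.71 to 1.11 in the other OC2-WT arrays. Xist, read only by female cells, stood at 6.99, 13.77 and 7.16 in OC2-KO and at 6.68, 13.70 and 14.53 in OC2-WT (1436936_s_at), so pair 3 joined 2 sexes. Rod markers were high on every array, from 82431 to 248228 in OC2-KO and from 91989 to 293139 in OC2-WT as the linear sum of Gnat1, Pde6b, Nrl and Cnga1, as is usual for retina. The 5 horizontal cell markers measured, 4 of them past the filter, summed to between 6535 and 8702 in OC2-KO and to between 11054 and 13168 in OC2-WT.

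The 36 genes were close to equal in the 2 genotypes. Their log2 differences, OC2-KO minus OC2-WT, ran from -0.82 for Grk1 to 0.59 for Prph2 with a median of 0.05, against a median of -0.00 over all 11065 genes. In 34 of the 36, or 94.4%, the difference was smaller than the SD between arrays of 1 genotype, as it was in 86.7% of all genes. That SD was itself larger for these genes, with a median of 0.41 against 0.30 over all genes. On a fixed scale, 34 of the 36 and 10554 of 11065 genes differed by under 0.5. None passed an unadjusted p of 0.05 in limma, where 109 of 11065 genes or 0.985% did, and none passed an adjusted p of 0.05, which no gene did (0 of 11065, 0.0%). Spata7 was the 1 gene of the 36 whose OC2-KO arrays all lay above the OC2-WT arrays, which 1.95% of all genes did, and no gene of the 36 lay wholly below, against 1.83% of all genes. The limma interval at 95% lay within a 2-fold difference for 27 of the 36, or 75.0%, and for 78.8% of all genes.

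The labels do not say what the replicate numbers mark, and the pairing was taken from how these same arrays varied together. A fit with the replicate number as a block had 2 residual degrees of freedom. It left 2 genes past an unadjusted p of 0.05, Grk1 and Pcdh15. These make up 5.56% of the 36, beside 3.53% of all genes, and neither passed the adjusted threshold (limma with block, adjusted p = 0.999 for both). In that fit the interval lay within a 2-fold difference for 34 of the 36 and for 92.3% of all genes. Since the tissue was measured whole, a change in photoreceptor number and a change in RNA per photoreceptor cannot be told apart. The study's text reports no change at P21 in rods by staining, or in rods and cones by in situ hybridization.

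**Figure D1:**
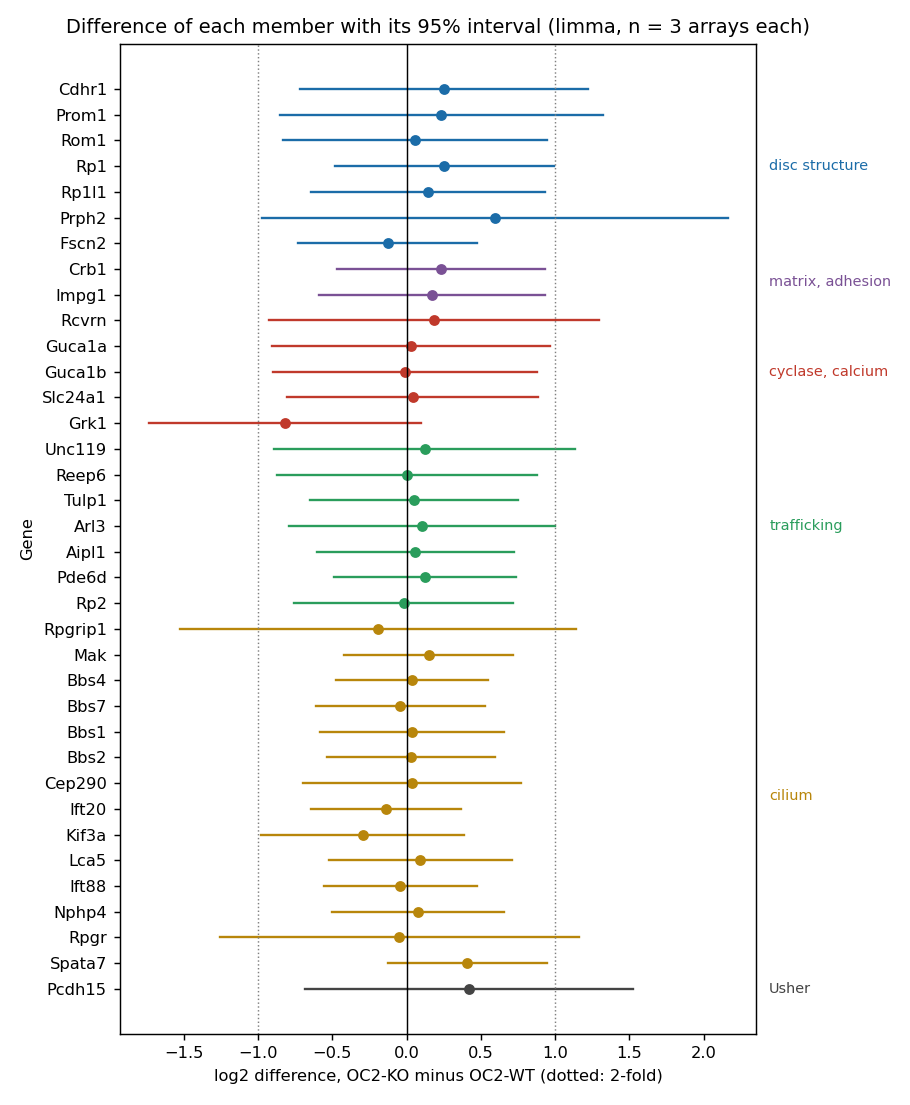
Log2 difference of each of the 36 genes, OC2-KO minus OC2-WT, on the horizontal axis, with genes down the page and coloured by role. Points are limma estimates and bars their 95% intervals (3 arrays each), and dotted lines mark a 2-fold difference. All 36 intervals include 0, and Grk1 at -0.82 lies farthest from it.

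A group of 7 genes builds the discs and their frame, and 6 of them had a positive log2 difference, with a median of 0.23. Over all genes, 5397 of 11065 had a positive difference. The pairs went different ways for this group, with medians of 0.42, -0.06 and 0.04 in pairs 1, 2 and 3. Of the cone markers 6 of 6 were positive, with a median of 0.26, and 4 were higher in 3 of 3 pairs, as were 10.9% of all genes. Pde6c, at 0.82 ± 0.33 (SE), was the 1 past an unadjusted p of 0.05 in limma, as were 0.985% of all genes. It did not pass an adjusted p of 0.05. The part of cone markers in the values of the disc genes was not tested. Prph2 encodes peripherin 2, the tetraspanin that bends the rim of each disc. Its log2 intensity was 13.19, 10.81 and 10.82 in OC2-KO and 11.66, 10.77 and 10.61 in OC2-WT. OC2-KO replicate 1 stood far above the other 5 arrays, the 2 genotypes overlapped, and the difference was 0.59 ± 0.67 (SE). Without that array the difference was -0.20.

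Rp1, a microtubule-binding protein of the outer segment axoneme that keeps the discs aligned, stood at 14.28, 13.56 and 14.29 in OC2-KO and at 13.97, 13.32 and 14.07 in OC2-WT. It was higher in 3 of 3 pairs, by 0.31, 0.23 and 0.22, but the spread among arrays was larger than these steps, and limma gave 0.26 ± 0.31 (SE, adjusted p = 1.00). Its relative Rp1l1 was also higher in each pair, by 0.13, 0.10 and 0.20. Cdhr1, a photoreceptor cadherin at the base of the outer segment, was measured at 15.41, 14.36 and 15.53 in OC2-KO and at 14.63, 14.43 and 15.49 in OC2-WT, a difference of 0.25 ± 0.41 (SE). The pairs went different ways for this gene, at 0.78, -0.06 and 0.04. Prom1, a membrane protein of newly forming discs, differed by 0.23 ± 0.46 (SE), and Rom1, the tetraspanin partner of peripherin 2, by 0.06 ± 0.38 (SE). Fscn2, the retinal form of the actin-bundling protein fascin, was the only one of the 7 with a negative value, -0.13 ± 0.25 (SE), and it was lower in 3 of 3 pairs.

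The surroundings of the photoreceptor were represented by 2 genes. Crb1, a polarity protein of the adhesion belt at the outer limiting membrane, had log2 intensities of 13.72, 13.16 and 13.98 in OC2-KO and of 13.29, 13.11 and 13.77 in OC2-WT. It was higher in 3 of 3 pairs, by 0.44, 0.04 and 0.21, with overlapping genotypes and a difference of 0.23 ± 0.30 (SE). Impg1, a proteoglycan of the matrix around the outer segments, stood at 11.73, 10.78 and 11.49 in OC2-KO and at 11.55, 10.82 and 11.11 in OC2-WT, a difference of 0.17 ± 0.32 (SE).

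**Figure D2:**
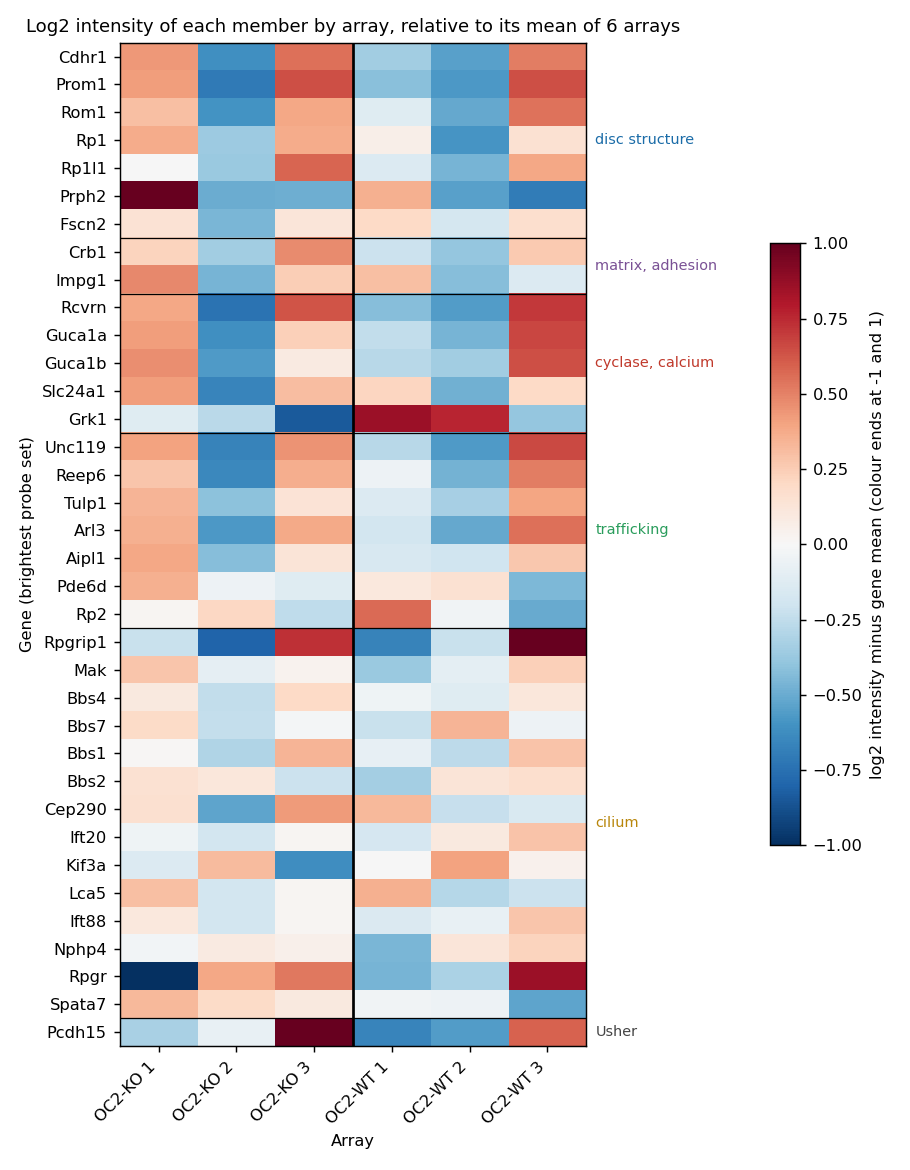
Log2 intensity of the 36 genes (rows, grouped by role) on each array (columns, OC2-KO left of OC2-WT) as a difference from the mean of the 6 arrays for that gene. Red is above and blue below that mean, and colours end at -1 and 1. In 34 of the 36 rows (94.4%) the difference between the genotypes is smaller than the SD between arrays of 1 genotype, as in 86.7% of all genes. That SD has a median of 0.41 for the 36 genes and of 0.30 for all genes.

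The genes of cyclase control and calcium feedback held the gene with the largest difference of all 36. Grk1 encodes rhodopsin kinase, which phosphorylates light-activated rhodopsin so that arrestin can end its signal. Its log2 intensity was 10.13, 9.98 and 9.41 in OC2-KO and 11.11, 11.02 and 9.86 in OC2-WT. OC2-KO was lower in 3 of 3 pairs, by -0.98, -1.03 and -0.45 on the log2 scale, and the genotypes overlapped through OC2-WT replicate 3, which lay among the OC2-KO arrays. The array numbered 3 was the lowest in each genotype. Whether the larger 3' to 5' difference of Actb on these arrays bears on this was not tested. The group means were 9.84 ± 0.38 in OC2-KO and 10.66 ± 0.69 in OC2-WT (SD, n = 3 each), which is 1.77-fold lower in OC2-KO. The limma difference of -0.82 ± 0.39 (SE) had a 95% interval of -1.74 to 0.09 and an adjusted p of 1.00. With the block the interval was -1.29 to -0.36. Over 18 other ways to treat the data the difference stayed between -1.22 and -0.60, and the adjusted p from limma ran from 0.49 to 1.0. A single probe set measures Grk1, so no second one was there to set beside it.

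The other genes of this role stood closer to 0. Rcvrn, the calcium sensor recoverin that holds the kinase back in darkness, stood at 15.32, 14.19 and 15.56 in OC2-KO and at 14.51, 14.37 and 15.63 in OC2-WT. Its difference was 0.19 ± 0.47 (SE), higher in 1 of 3 pairs. Guca1a and Guca1b encode the proteins that switch on the cyclase when calcium falls. Guca1a differed by 0.03 ± 0.40 (SE) and Guca1b by -0.01 ± 0.38 (SE) on its bright probe set and by -0.80 ± 0.71 (SE) on its dim one. Slc24a1, the exchanger that pumps calcium out of the rod outer segment, differed by 0.04 ± 0.36 (SE). Gucy2e, a photoreceptor guanylate cyclase, did not pass the filter and stood at 3.50, 6.95 and 5.54 in OC2-KO and at 6.64, 7.39 and 4.71 in OC2-WT, values too scattered to read.

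**Figure D3:**
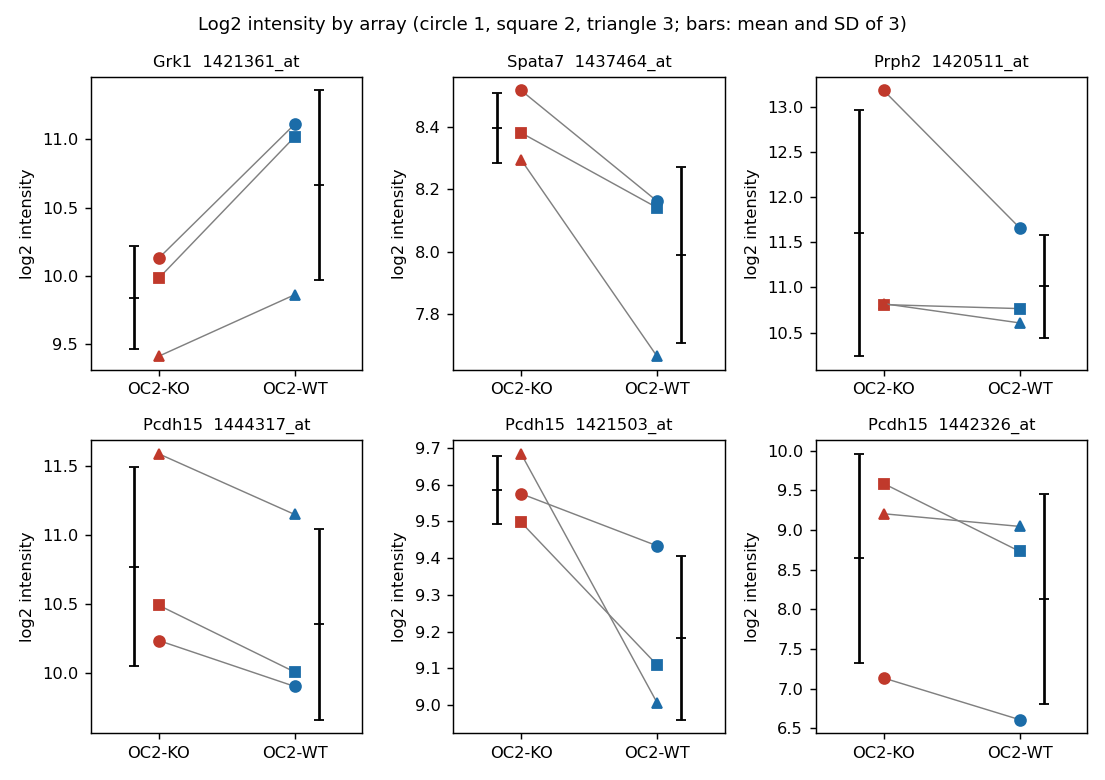
Log2 intensity by array of Grk1, Spata7, Prph2 and the 3 probe sets of Pcdh15, with OC2-KO left of OC2-WT in each panel. Lines join arrays with the same replicate number (circle 1, square 2, triangle 3), and bars give the mean and SD of 3 arrays. All 3 lines go the same way in each of the 6 panels, whose genes were picked with their values known. Of all genes, 10.9% were higher and 12.1% lower in OC2-KO in 3 of 3 pairs.

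To show the control regions of these genes, promoter windows of 300 bases (250 before to 50 after the annotated start, RefSeq, GRCm38.p6) were matched by symbol for 35 of the 40 genes. Both strands were searched for TAATCC, the core bound by CRX, a homeodomain factor of photoreceptors, and for ATCGAT, a core bound by Onecut factors. The TAATCC core was found in 7 of the 35 genes (20.0%, against 8.14% of 27025 genes), namely Aipl1, Bbs1, Guca1a, Gucy2e, Mak, Rpgrip1 and Unc119. The ATCGAT core was found in 1, Gucy2e (2.86%, against 1.02%), where the 2 matches did not overlap. A match is a description of the letters and not evidence of binding. The window of Guca1a and 1 window of Unc119 are shown because these are among the brightest of the genes. That of Aipl1 is shown because it holds 2 matches, and that of Grk1, with no match to either core, because its difference was the largest. Genes with several annotated starts had a window for each and counted if any held the core. The Unc119 window shown is the only one of that gene with a match, and Mak likewise had a match at 1 start alone. Capitals mark TAATCC, which reads GGATTA where it lies on the opposite strand.
Guca1a (chr17:47400557-47400856, minus strand): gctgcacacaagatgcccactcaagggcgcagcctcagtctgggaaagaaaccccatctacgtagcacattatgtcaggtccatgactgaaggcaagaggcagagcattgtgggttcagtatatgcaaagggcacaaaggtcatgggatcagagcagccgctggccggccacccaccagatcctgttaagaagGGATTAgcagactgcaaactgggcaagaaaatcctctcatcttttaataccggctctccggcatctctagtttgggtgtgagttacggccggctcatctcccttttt
Unc119 (chr11:78345334-78345633, plus strand): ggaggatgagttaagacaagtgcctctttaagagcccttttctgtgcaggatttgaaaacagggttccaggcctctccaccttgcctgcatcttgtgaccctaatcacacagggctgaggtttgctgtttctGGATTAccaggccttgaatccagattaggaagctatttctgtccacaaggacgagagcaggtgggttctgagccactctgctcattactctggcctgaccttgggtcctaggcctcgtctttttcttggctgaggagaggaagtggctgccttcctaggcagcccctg
Aipl1 (chr11:72037460-72037759, minus strand): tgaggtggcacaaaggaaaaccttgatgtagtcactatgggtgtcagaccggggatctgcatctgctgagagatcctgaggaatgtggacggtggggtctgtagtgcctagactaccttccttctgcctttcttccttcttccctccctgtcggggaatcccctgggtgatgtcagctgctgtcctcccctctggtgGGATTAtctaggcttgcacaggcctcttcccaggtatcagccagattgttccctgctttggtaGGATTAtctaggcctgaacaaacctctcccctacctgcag
Grk1 (chr8:13404831-13405130, plus strand): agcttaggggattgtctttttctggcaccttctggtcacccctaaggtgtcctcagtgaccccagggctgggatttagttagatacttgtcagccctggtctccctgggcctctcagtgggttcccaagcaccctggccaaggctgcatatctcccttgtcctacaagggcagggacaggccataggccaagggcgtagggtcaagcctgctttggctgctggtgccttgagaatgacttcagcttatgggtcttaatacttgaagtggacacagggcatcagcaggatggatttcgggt
The first base of the match lies at -57 in Guca1a, -118 in Unc119 and -53 and 10 in Aipl1, counted from the annotated start of the window shown.

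The 7 genes that traffic proteins into the outer segment had log2 differences from -0.02 to 0.12. Their pairs went different ways, with medians of 0.47, -0.11 and -0.15 in pairs 1, 2 and 3. Pde6d, which carries prenylated proteins such as the phosphodiesterase, had log2 intensities of 12.24, 11.83 and 11.76 in OC2-KO and of 11.99, 12.04 and 11.44 in OC2-WT, a difference of 0.12 ± 0.26 (SE). Unc119, the carrier of acylated transducin, was the brightest of all 36 genes and stood at 15.42, 14.34 and 15.46 in OC2-KO and at 14.73, 14.45 and 15.67 in OC2-WT, a difference of 0.12 ± 0.43 (SE). Arl3, the small GTPase that releases cargo from both carriers, differed by 0.10 ± 0.38 (SE). Rp2, the GTPase-activating protein of Arl3, stood at 8.80, 8.98 and 8.52 in OC2-KO and at 9.35, 8.74 and 8.27 in OC2-WT, a difference of -0.02 ± 0.31 (SE). Its probe sets 1419587_s_at and 1419586_at, both under the filter, differed by 1.26 and 1.25 because OC2-WT replicate 3 was listed at 2.60 and 1.24. Aipl1, a chaperone of the phosphodiesterase, Tulp1, which takes part in transport of rhodopsin, and Reep6, which shapes rod membranes on the way to the outer segment, differed by 0.06, 0.05 and 0.00. The second probe set of Aipl1, 1425590_s_at, stood at 12.51, 12.17 and 9.60 in OC2-KO and at 12.31, 12.46 and 10.55 in OC2-WT and differed by -0.34 ± 0.85 (SE).

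The 14 genes of the connecting cilium and of transport along it had a median log2 difference of 0.03, with 8 values above 0 and 6 below. Spata7, a protein of the connecting cilium, had log2 intensities of 8.52, 8.38 and 8.29 in OC2-KO and of 8.16, 8.14 and 7.66 in OC2-WT. Every OC2-KO array lay above every OC2-WT array, and the pairs differed by 0.36, 0.24 and 0.63. The limma difference was 0.41 ± 0.23 (SE, adjusted p = 1.00), and Spata7 was also the dimmest of the 36. After median centring of each array its genotypes overlapped.

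Kif3a, a motor subunit of kinesin 2, stood at 10.14, 10.59 and 9.66 in OC2-KO and at 10.28, 10.68 and 10.32 in OC2-WT. It was lower in 3 of 3 pairs and limma gave -0.29 ± 0.29 (SE). The 3 further probe sets of Kif3a differed by -0.06, 0.00 and -0.01. Ift20 and Ift88, 2 proteins of the transport trains, differed by -0.14 ± 0.22 and -0.04 ± 0.22 (SE). The genes Bbs1, Bbs2, Bbs4 and Bbs7, subunits of the BBSome that removes proteins from the cilium, differed by 0.04, 0.03, 0.04 and -0.04. Among proteins of the transition zone, Cep290 differed by 0.04 ± 0.31 and Nphp4 by 0.07 ± 0.25 (SE). Lca5, which links to transport trains, differed by 0.09 ± 0.26, and Mak, a kinase that limits axoneme length, by 0.15 ± 0.24 (SE). The second probe set of Mak, 1422724_at, stood at 10.20, 10.01 and 7.87 in OC2-KO and at 10.14, 9.95 and 8.49 in OC2-WT and differed by -0.17 ± 0.71 (SE), the opposite sign.

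Rpgr and Rpgrip1 form a complex at the connecting cilium, with Rpgrip1 as the anchor. Rpgr varied widely within each genotype, at 7.53, 8.92 and 9.06 in OC2-KO and at 8.06, 8.21 and 9.38 in OC2-WT, and differed by -0.05 ± 0.51 (SE). The brightest probe set of Rpgrip1 stood at 13.04, 12.46 and 13.99 in OC2-KO and at 12.59, 13.04 and 14.45 in OC2-WT, a difference of -0.19 ± 0.57 (SE). The probe sets 1454231_a_at and 1451785_at differed by -0.03 and -0.06. Its dimmest, 1431357_a_at, stood at 7.80, 6.94 and 7.33 in OC2-KO and at 8.04, 8.22 and 7.85 in OC2-WT, with every OC2-KO array below every OC2-WT array. It differed by -0.68 ± 0.27 (SE, limma, adjusted p = 1.00). It was the 1 of 53 probe sets kept for these genes to pass an unadjusted p of 0.05, which is 1.89%, beside 0.987% of all 21176. With the block 4 of the 53 passed, which is 7.55%, beside 4.19% of all, namely this probe set, that of Grk1 and 1444317_at and 1442326_at of Pcdh15. It was looked at after its values were known.

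The Usher genes encode adhesion and motor proteins of hair cells and of photoreceptor calyceal processes. Of the 4 on the list, only Pcdh15 passed the filter. This protocadherin forms the tip links of hair cells together with cadherin 23. Log2 intensities on its brightest probe set, 1444317_at, were 10.23, 10.49 and 11.59 in OC2-KO and at 9.90, 10.01 and 11.15 in OC2-WT. The arrays numbered 3 were highest in both genotypes, so the genotypes overlapped widely, but each pair was higher in OC2-KO, by 0.33, 0.48 and 0.44. The difference was 0.42 ± 0.47 (SE), and with the block 0.42 ± 0.15 (SE) with an interval of 0.04 to 0.80. In the fit with no block this value depended on the third arrays, at 0.01 when OC2-KO replicate 3 was dropped and 0.82 when OC2-WT replicate 3 was. Both further probe sets had the same sign in each pair. On 1421503_at the arrays stood at 9.58, 9.50 and 9.68 in OC2-KO and at 9.43, 9.11 and 9.01 in OC2-WT, without overlap. On 1442326_at they stood at 7.14, 9.59 and 9.21 in OC2-KO and at 6.61, 8.73 and 9.05 in OC2-WT. The differences of these probe sets were 0.40 ± 0.21 and 0.51 ± 0.83 (SE). With the block, intervals were -0.04 to 0.84 for 1421503_at and 0.03 to 0.99 for 1442326_at, and both had an adjusted p of 0.999 in limma.

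The remaining Usher genes of the list did not pass the filter. Cdh23 stood between 5.48 and 5.87 in OC2-KO and between 5.26 and 5.98 in OC2-WT. The motor protein Myo7a ran from 2.03 to 8.17 in OC2-KO and from 3.39 to 7.85 in OC2-WT, and the membrane protein Clrn1 from 4.45 to 7.42 in OC2-KO and from 5.91 to 6.37 in OC2-WT.

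Counted by pairs, 6 of the 36 genes were higher in OC2-KO in 3 of 3, namely Prph2, Rp1, Rp1l1, Crb1, Spata7 and Pcdh15, which is 16.7%, and 10.9% of all genes were. Fscn2, Grk1 and Kif3a were lower in 3 of 3, which is 8.33%, and 12.1% of all genes were. The pairs themselves did not point one way. In pair 1, 29 of the 36 were higher in OC2-KO with a median log2 difference of 0.34, in pair 2, 10 were higher with a median of -0.09, and in pair 3, 17 were higher with a median of -0.06. Over all genes 50.1%, 48.5% and 49.1% were higher in the 3 pairs. Rod phototransduction genes, 11 of which were measured, followed the same course, with pair medians of 0.55, -0.13 and -0.25.

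**Figure D4:**
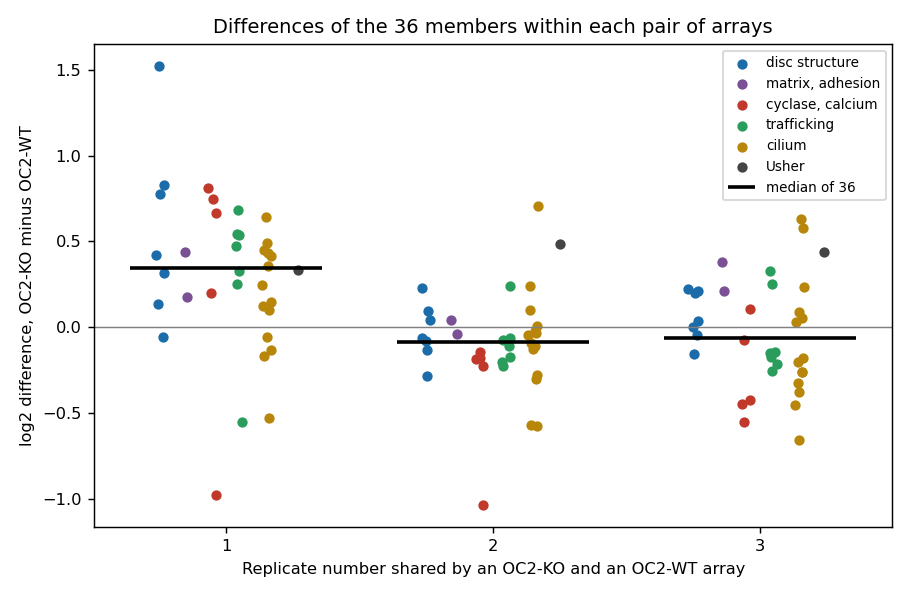
Log2 difference of the 36 genes within each pair of arrays, OC2-KO minus OC2-WT, by replicate number. Points are genes coloured by role and black bars are medians, which lie at 0.34, -0.09 and -0.06.

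The bright members varied together from array to array. Of the 36 genes, 11 had a mean log2 intensity above 14, which is 30.6%, against 1.07% of all genes. They were Rom1, Tulp1, Prom1, Cdhr1, Unc119, Arl3, Guca1a, Guca1b, Rcvrn, Reep6 and Slc24a1. Their median stood at 15.05, 14.01 and 14.95 in OC2-KO and at 14.51, 14.24 and 15.23 in OC2-WT. All 11 lay above their own mean in OC2-KO replicates 1 and 3 and OC2-WT replicate 3, and below it in replicate 2 of either genotype. The same course was found in 103 of the 118 genes this bright on the array, or 87.3%, and in 9.53% of all genes. The level above which the brightest 1% of probe sets lay followed it too, at 13.68, 13.19 and 13.71 in OC2-KO and 13.41, 13.21 and 13.73 in OC2-WT. Quantile normalization, which gives every array the same distribution, turned the sign of 9 of the 36 differences, the largest of which was 0.12 in size.

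Where a gene had several probe sets, the arrays numbered 3 differed from the rest. In 9 of 17 comparisons of the brightest with another probe set of the same gene, or 52.9%, the gap was wider on both arrays numbered 3 than on all 4 others, against 31.0% of 7648 comparisons over all genes. Aipl1 had gaps of 1.75, 1.28 and 4.40 in OC2-KO and of 1.40, 1.22 and 3.59 in OC2-WT on the log2 scale. Mak had gaps of 2.56, 2.38 and 4.64 in OC2-KO and of 1.97, 2.43 and 4.23 in OC2-WT. The 3' to 5' difference of Gapdh moved the same way, at -0.31, -0.32 and 1.29 in OC2-KO and at -0.48, -0.29 and 1.04 in OC2-WT, and its part in these gaps was not tested. Markers of retinal pigment epithelium were highest on the same arrays, with a linear sum over 9 markers of 13130, 22271 and 64193 in OC2-KO and of 22226, 23673 and 78263 in OC2-WT. Most of this sum was Ttr, a thyroid hormone carrier, and without it the sum was 1725, 4905 and 5942 in OC2-KO and 3646, 4153 and 6878 in OC2-WT. Mlana, Tyr and Best1 did not pass the filter. Pcdh15 was highest on these arrays on its brightest probe set, and whether any of this bears on it was not tested.

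**Figure D5:**
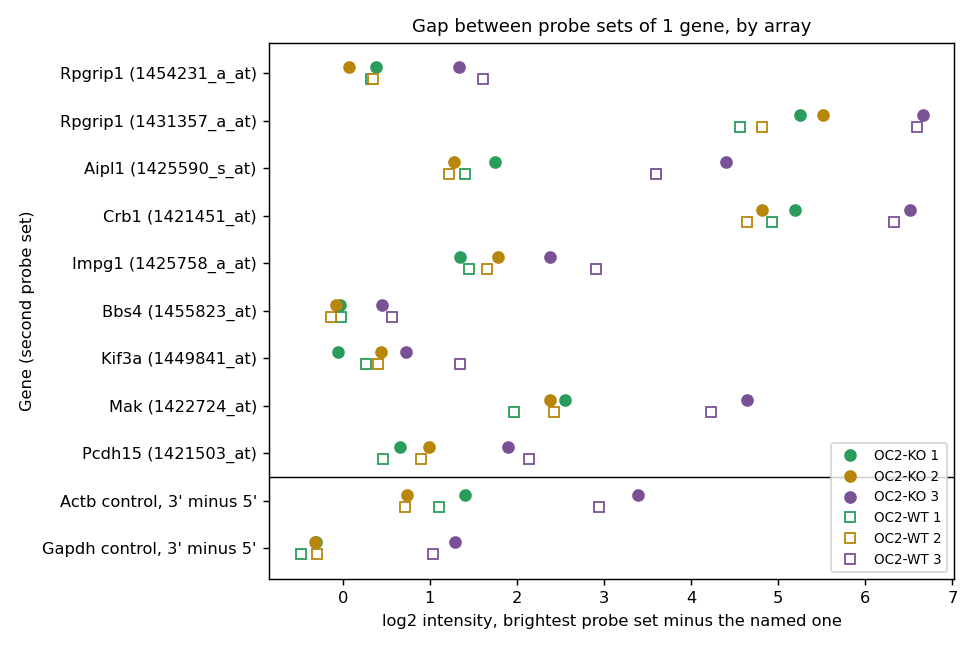
Gap in log2 intensity between the brightest and a named second probe set of the same gene for the 9 comparisons that set the arrays numbered 3 apart, with the 3' minus 5' differences of Actb and Gapdh below the line. Filled circles are OC2-KO arrays and open squares OC2-WT arrays, coloured by replicate number, and in each line both arrays numbered 3 lie to the right of the other 4.

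The same fit was read for further genes of these structures, and none of them passed an unadjusted p of 0.05 in limma. Of the other Bardet-Biedl genes, 8 of 9 were measured, 7 with a positive difference, and the median was 0.07. Bbs10, which belongs to the chaperonins that assemble the BBSome, differed by -0.51 ± 0.36 (SE) and was lower in 3 of 3 pairs, while Lztfl1, which regulates BBSome traffic, differed by 0.26 ± 0.29 (SE). All 21 of the other transport genes were measured, 13 above 0 and 8 below, with a median of 0.06. Among these the motor Kif17 differed by 0.51 ± 0.31 (SE), close to the filter, and Ift57 by 0.22 ± 0.22 (SE). Of 22 transition zone and basal body genes 18 passed the filter, 8 above 0 and 10 below, with a median of -0.03. Ofd1, a centriole protein, differed by 0.40 ± 0.30 (SE).

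Of the other Usher genes only Adgrv1 and Whrn passed. Adgrv1, a very large adhesion receptor of the periciliary membrane, stood at 10.45, 10.43 and 10.47 in OC2-KO and at 10.16, 10.03 and 10.22 in OC2-WT. Its arrays lay close together within each genotype and did not overlap between them, with a difference of 0.31 ± 0.19 (SE, limma, adjusted p = 1.00). Whrn, the scaffold that binds it, differed by -0.17 ± 0.41 (SE). Of 14 names listed for other outer segment and trafficking disease genes 11 were measured, with 6 above 0, 5 below and a median of 0.04. The largest difference was 0.22 ± 0.31 (SE) for Pcare, an actin-linked protein of new discs. Rod phototransduction genes had a median of 0.04, led by Gngt1, the gamma subunit of transducin, at 0.29 ± 0.59 (SE). Of 6 markers of multiciliated epithelium, which bears motile cilia, only Ccdc39 passed the filter, while Foxj1, their master regulator, did not. Their linear sum was 463, 527 and 861 in OC2-KO and 466, 512 and 855 in OC2-WT, highest on the arrays numbered 3. A part of motile cilia in the signal was not tested.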

How the data were processed

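Adult retinal RNA was amplified, labelled with biotin and hybridised to Affymetrix mouse arrays (3 OC2-KO, 3 OC2-WT). The deposited values are linear intensities that the authors background-adjusted and normalized with MAS5 (version not given in the sources used here), and each array has a trimmed mean of 500.0. Such scaling hides a change shared by all genes. Arrays were grouped by the genotype in the labels.

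Of the 45101 probe sets per array, 64 control probe sets were removed and intensities were log2-transformed. The 21176 probe sets with a mean above 7 in either genotype were kept. Names came from the platform annotation, which gave 34945 probe sets 1 symbol and 932 several, and the first kind alone named genes. Differences were fitted with limma 3.58.1 in R 4.3.3 (lmFit, eBayes, two-sided, Benjamini-Hochberg over the probe sets kept), in place of the methods' t-test, using 6 arrays, which left 4 residual degrees of freedom. The fit was tested on simulated data. The genes, roles and lists were chosen with earlier results of these data known. Values per array are given for genes whose genotypes did not overlap, for the 2 with the largest difference in each role and for those with a probe set opposite in sign to the brightest by over 0.5, and of other lists up to 3 genes by smallest p.

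Correlation of the arrays' deviations from their genotype mean was 0.576, 0.590 and 0.585 for equal replicate numbers and -0.429 to -0.135 for unequal ones, so the numbers were taken as pairs. Alternatives were an intensity trend, the replicate block, a filter at 8 or none, median centring, quantile normalization, a floor at 6, the mean of probe sets, the methods' t-test, and leaving out each array or both numbered 3.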

Additional observations from a re-analysis of the deposited data

How the results depend on the processing

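No gene of the list passed an adjusted p of 0.05 in limma or in the methods' t-test under any alternative run. At an unadjusted p of 0.05 the count was 0 with all 6 arrays, and also with an intensity trend, a filter at 8 or none, median centring, quantile normalization, a floor at 6, the mean of probe sets and the methods' t-test. With the replicate block it was 2 (Grk1 and Pcdh15), without both arrays numbered 3 it was 2 (Grk1 and Clrn1), and leaving out 1 array it ran from 0 to 1. Clrn1 passed without OC2-KO replicate 3 and Grk1 without OC2-WT replicate 3. Neither Clrn1 nor Gucy2e passed the filter with all 6 arrays. In 2 alternatives chosen after seeing the data the count was 3, with the replicate block plus an intensity trend (Prph2, Grk1 and Pcdh15) and with the replicate block without both arrays numbered 3 (Gucy2e, Grk1 and Clrn1). The cause was not tested.

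The count of genes without overlap was 1 with all arrays, 2 after quantile normalization, 0 after median centring, 5 without both arrays numbered 3, and 1 to 5 when 1 array was left out, where fewer arrays make overlap less likely by construction. The median log2 difference was 0.05 and ran from -0.0545 to 0.279 when 1 array was left out, the highest without OC2-KO replicate 2. The sign of the difference changed under at least 1 alternative for 28 of the 36 genes and under none for Rp1, Cdhr1, Crb1, Grk1, Ift20, Kif3a, Spata7 and Pcdh15. Precision was limited by 3 arrays per genotype.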
